A study of Rattus norvegicus with 6 samples.

Results

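The genes described here are the rat integrin chains and the dystroglycan complex, 33 genes of the 29468 gene symbols in the deposited tables. They were chosen by gene name, with no measured value in the rule: 19 chains of integrins that bind the extracellular matrix, 7 chains known mainly from leukocytes, and 7 genes of the dystroglycan complex. The study sequenced mRNA of Lewis rats, labelled as wild type, from 3 samples of Schwann cell precursors (SCPs) and 3 samples of repair Schwann cells (RSCs), to ask how these cells differ as substrates for growing axons. The SCPs came from sciatic nerves and brachial plexus of embryos at embryonic day 14, and the RSCs from the distal part of sciatic nerves of rats aged 10 weeks, 1 week after the nerve was cut. Both were dissociated with enzymes, the RSCs with more collagenase and for longer, and then left briefly in uncoated flasks so that fibroblasts and macrophages would stick and be left behind. The labels do not say whether the 3 samples of a group came from separate animals, so the p-values below measure the spread between preparations. Age, injury, tissue of origin and digestion all differed between the groups and cannot be told apart.

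Integrins are receptors made of an alpha and a beta chain that hold a cell to its surroundings and link the matrix to the actin cytoskeleton. Which matrix protein is bound depends on the pair of chains. Dystroglycan is a receptor for laminin whose intracellular end joins dystrophin or utrophin, with the sarcoglycans beside it in the membrane. Along the Schwann cell lineage these receptors tie the cell to the laminin of its basal lamina, and loss of Itgb1 or Dag1 from mouse Schwann cells is known to disturb the sorting of axons or the upkeep of myelin.

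Promoter sequences are shown for 4 of the genes on which the results turn, a beta chain and a sarcoglycan that were higher in the RSCs, an alpha chain that was higher in the SCPs and a leukocyte chain. Each runs 5′ to 3′ along the gene from 250 bases before to 50 bases after its start in RefSeq on the GRCr8 assembly, and 25 of the 33 genes had such a window. Capitals mark matches, on either strand, to the letters TGANTCA (AP-1), GGAATG (TEAD), GAGGAA (PU.1) or GGGCGG (GC box).
Itgb8, chr6:146351196-146351495, minus strand: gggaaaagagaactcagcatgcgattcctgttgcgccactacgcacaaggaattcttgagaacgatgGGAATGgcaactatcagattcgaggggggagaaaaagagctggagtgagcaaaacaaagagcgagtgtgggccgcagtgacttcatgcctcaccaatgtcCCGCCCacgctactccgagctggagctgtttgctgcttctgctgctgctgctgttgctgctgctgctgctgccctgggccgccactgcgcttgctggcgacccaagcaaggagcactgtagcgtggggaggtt
Itga4, chr3:84569765-84570064, plus strand: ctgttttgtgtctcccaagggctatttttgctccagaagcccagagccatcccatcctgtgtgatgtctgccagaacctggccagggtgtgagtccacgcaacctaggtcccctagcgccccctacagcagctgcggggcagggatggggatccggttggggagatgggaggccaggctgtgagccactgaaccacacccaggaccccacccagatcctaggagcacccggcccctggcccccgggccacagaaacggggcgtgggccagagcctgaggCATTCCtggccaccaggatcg
Itgam, chr1:192089342-192089641, plus strand: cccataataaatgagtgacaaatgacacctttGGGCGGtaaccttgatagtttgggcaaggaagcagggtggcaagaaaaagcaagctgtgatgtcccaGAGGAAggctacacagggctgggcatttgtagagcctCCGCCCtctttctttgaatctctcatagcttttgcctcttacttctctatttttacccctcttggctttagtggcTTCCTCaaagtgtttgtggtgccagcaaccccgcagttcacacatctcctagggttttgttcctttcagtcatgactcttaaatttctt
Sgcb, chr14:34917413-34917712, plus strand: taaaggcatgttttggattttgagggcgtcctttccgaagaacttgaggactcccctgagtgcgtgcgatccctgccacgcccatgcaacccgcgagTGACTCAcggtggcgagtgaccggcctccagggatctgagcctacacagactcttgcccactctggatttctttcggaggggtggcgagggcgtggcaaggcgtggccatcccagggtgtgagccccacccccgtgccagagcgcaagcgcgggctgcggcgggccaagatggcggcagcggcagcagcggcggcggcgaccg
The AP-1 letters were in the windows of Sgcb, Itgax and Dmd, that is 3 of 25 genes, against 7.33% of all 27457 promoters. The TEAD letters were in 7 of 25 windows, Itgb8 and Itga4 among them, against 13.9% of all promoters. PU.1 letters lay in 8 windows against 27.5% of all promoters, and the GC box in 11 windows against 34.9%. TEAD and PU.1 letters share GGAA and can overlap, which they did not in the windows shown. A match is a run of letters and not a measured site.

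Levels are FPKM, fragments per unit of transcript length and of mapped fragments, which can be compared between genes because length is taken out. A gene was tested if its mean was at least 1 FPKM over the 6 samples. A difference is given as a log2 fold change of FPKM + 1, RSC minus SCP, with its standard error (SE) from limma, so that the change of a low gene is understated. A gene was called at an unadjusted limma p under 0.01, the p threshold of the study. The study took its p from the program Cuffdiff, and its definition of differential expression also asked for a change over 4-fold. Of 13003 genes tested, 18.1% were called higher in the RSCs and 22.4% higher in the SCPs, and the median difference over all of them was -0.17. With FPKM rescaled by median-of-ratios factors that median moved up by 0.19 and the calls higher in the RSCs went from 44.6% to 56.1% of all calls. In bulk samples, fewer cells of a type and less RNA per cell cannot be told apart.

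Sox10, the transcription factor of the Schwann cell lineage, read 179, 175 and 181 FPKM in the SCPs and 149, 143 and 143 FPKM in the RSCs. Schwann cell markers summed to 451 to 511 FPKM in the SCPs and 1873 to 2395 FPKM in the RSCs. Markers of other cells moved with the groups. The 9 myeloid markers in the tables summed to 14.4 to 41.3 FPKM in the SCPs and 2215 to 2669 FPKM in the RSCs, and the 6 fibroblast markers to 355.5 to 641 FPKM and 4170 to 6431 FPKM. Skeletal muscle markers went the other way, 59.5 to 220.3 FPKM in the SCPs and 27.6 to 31.1 FPKM in the RSCs, with Myod1 and Myf5 listed at 0 in every RSC sample. Cartilage markers summed to 61.98 to 110.0 FPKM in the SCPs, nearly all of it Col2a1, and 5.42 to 7.42 FPKM in the RSCs, where Sox9 was higher. Endothelial markers summed to 31.8 to 54.3 FPKM in the SCPs and 55.1 to 66.1 FPKM in the RSCs. None of these 6 markers was called, and Pecam1 and Kdr averaged higher in the SCPs.

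Over all 33 genes, 26 could be tested: 12 were called higher in the RSCs, 3 higher in the SCPs and 11 were not called. Among all genes tested, 18.1% were called higher in the RSCs and 22.4% higher in the SCPs. The median difference of the 26 genes was 1.04. Over 4-fold differences were called for 7 genes, all higher in the RSCs, where 7.81% of all genes tested were that much higher in the RSCs and 3.78% in the SCPs. The 3 values of one group lay entirely apart from those of the other for 20 of the 26 genes, against 58.6% of all genes tested. Passing the filter does not mean the same for every gene. The 8 chains Itga3, Itga1, Itgb4, Itgal, Itgam, Itgax, Itgb2 and Itgb7 passed only through the RSC samples and Itga8 only through the SCP samples, so the counts and medians describe the genes tested and not all members. Some genes of the ligand, partner and marker lists likewise passed through the samples of either group alone. The plot of levels shows each of the 33 genes in every sample.

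**Figure D1:**
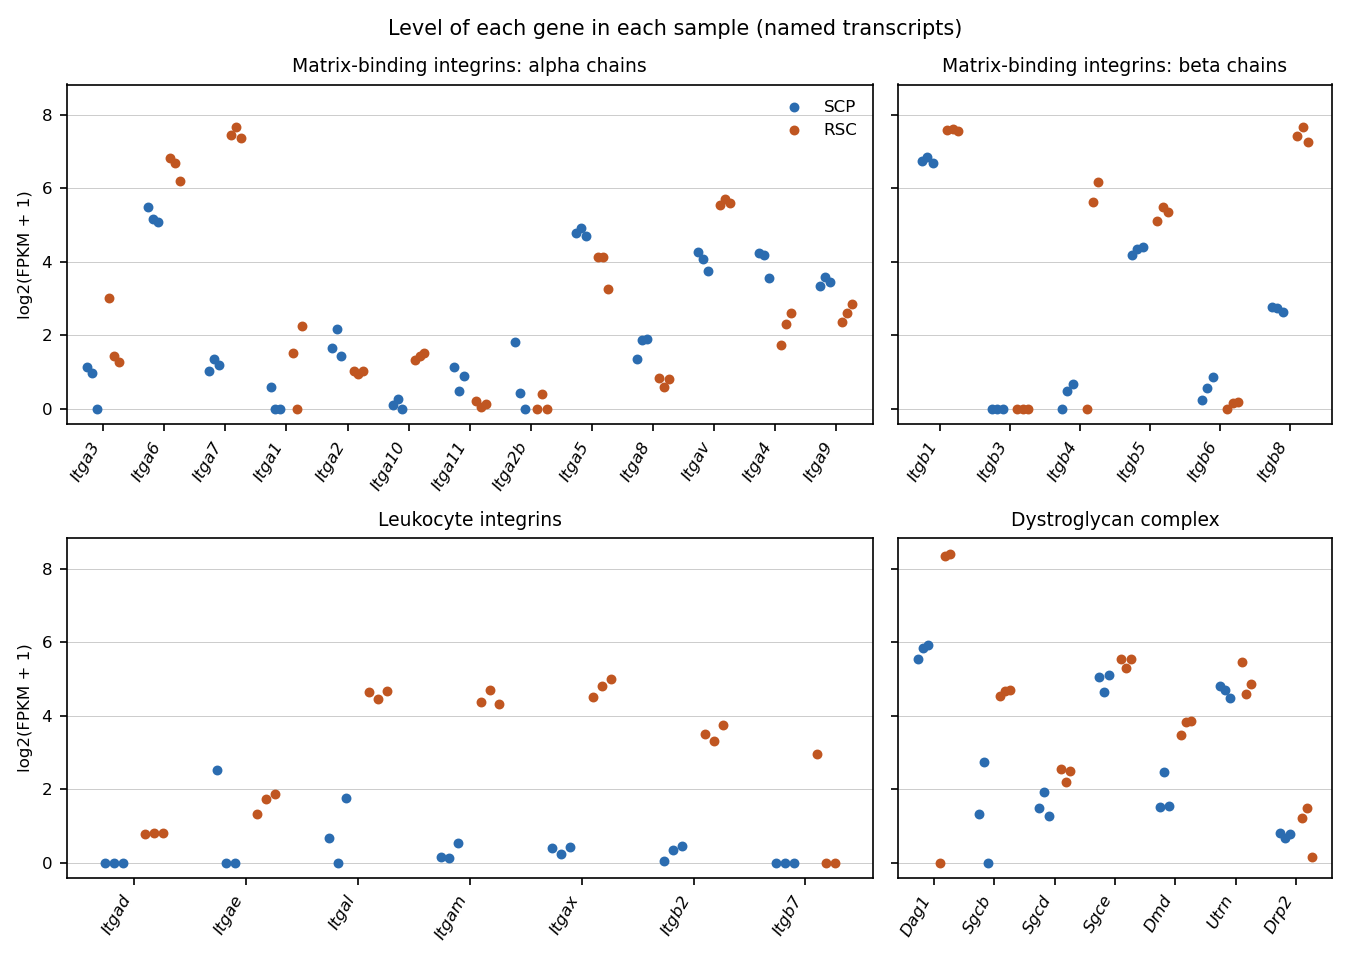
Level of each of the 33 genes in each sample, as log2(FPKM + 1) on the vertical axis, with SCP samples in blue and RSC samples in orange, in 4 panels by class. Itga7 and Itgb8 stand between 154 and 202 FPKM in all RSC samples and under 6 FPKM in all SCP samples, and Dag1 shows 1 RSC sample at 0 beside the others above 300 FPKM.

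Of the 3 alpha chains of laminin receptors, Itga6 and Itga7 were called higher in the RSCs. Itga7, which pairs with Itgb1 and is best known as a laminin receptor of muscle and Schwann cells, read 1.02, 1.57 and 1.27 FPKM in the SCPs and 173, 202 and 166 FPKM in the RSCs. Every RSC sample was far above every SCP sample, and the log2 fold change was 6.31 (SE 0.14, n = 3 per group, limma adjusted p = 7.4e-06). Of 7 skeletal muscle markers tested, 5 were higher in the SCPs and 1, Des, was higher in the RSCs, and their part in the level of Itga7 was not tested. Of the transcripts named Itga7, the curated RefSeq one held 133, 118 and 128 FPKM of the RSC level, a shorter predicted one 40.5, 28.8 and 38.6 FPKM, and a longer predicted one 0, 55.9 and 0 FPKM. Unnamed transcripts at the locus added 55.6, 0 and 62.2 FPKM.

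Itga6, the laminin-binding chain that pairs with Itgb1 or Itgb4, was already high in the precursors. It read 44.1, 34.8 and 32.8 FPKM in the SCPs and 113, 103 and 73.2 FPKM in the RSCs, with a log2 fold change of 1.34 (SE 0.20, limma adjusted p = 0.0027). The groups did not overlap. Its 2 named transcripts were listed in unlike proportions: the curated one at 17.2, 13.9 and 13.8 FPKM in the SCPs against 113, 92.8 and 73.2 FPKM in the RSCs, and the predicted one at 26.9, 20.8 and 19.0 FPKM against 0, 10.5 and 0 FPKM. By the curated transcript alone, which had the higher mean over all 6 samples, the log2 fold change of Itga6 was 2.54 (SE 0.18). The predicted transcript was the higher of the 2 in every SCP sample. That choice thus rests on the RSC values, and 2.54 is no separate support for the difference. Transcript values are estimates by Cufflinks. Itga3, the remaining laminin-binding chain, was low, at 1.22, 0.953 and 0 FPKM in the SCPs and 7.16, 1.72 and 1.42 FPKM in the RSCs, and was not called (log2 fold change 1.21, SE 0.58, limma adjusted p = 0.14).

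The alpha chains that bind collagen were low in both groups. Itga1 was listed at 0.504, 0 and 0 FPKM in the SCPs and at 1.89, 0 and 3.80 FPKM in the RSCs, overlapping groups with no call (log2 fold change 1.07, SE 0.61, limma adjusted p = 0.20), and without RSC2 it was called at a log2 fold change of 1.70 (SE 0.36). Itga2 read 2.14, 3.48 and 1.70 FPKM in the SCPs and 1.06, 0.933 and 1.05 FPKM in the RSCs, apart but not called (log2 fold change -0.74, SE 0.26, limma adjusted p = 0.061). Both remaining chains were under the filter. Itga10 went from 0 to 0.199 FPKM in the SCPs to 1.51 to 1.85 FPKM in the RSCs, and Itga11 from 0.393 to 1.20 FPKM to 0.0397 to 0.163 FPKM.

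Among the alpha chains that bind the RGD motif of fibronectin, vitronectin and other ligands, Itgav was higher in the RSCs. It read 18.3, 15.9 and 12.5 FPKM in the SCPs and 45.7, 51.3 and 48.0 FPKM in the RSCs, with no overlap and a log2 fold change of 1.59 (SE 0.15, limma adjusted p = 5.1e-04). Itga5, the classical fibronectin receptor chain, leaned the other way at 26.4, 29.2 and 25.0 FPKM against 16.6, 16.5 and 8.59 FPKM. All its SCP values were above all its RSC values, yet it missed the threshold (log2 fold change -0.95, SE 0.26, limma adjusted p = 0.027), and without RSC3 it passed at -0.66 (SE 0.12). Itga8, a receptor chain for nephronectin and fibronectin, was low and called higher in the SCPs, with 1.55, 2.66 and 2.75 FPKM against 0.776, 0.504 and 0.747 FPKM (log2 fold change -0.97, SE 0.25, limma adjusted p = 0.023). Itga2b, the platelet chain, was under the filter, at 2.56, 0.338 and 0 FPKM in the SCPs and at most 0.333 FPKM in the RSCs.

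The related chains Itga4 and Itga9 were both higher in the SCPs. Itga4, a receptor chain for fibronectin and Vcam1 that is known from the neural crest and from leukocytes, read 17.8, 17.2 and 10.8 FPKM in the SCPs and 2.35, 3.98 and 5.09 FPKM in the RSCs. The groups were apart, with a log2 fold change of -1.77 (SE 0.30, limma adjusted p = 0.0048). The part of leukocyte RNA in its level was not tested. Itga9, whose ligands include tenascin-C and osteopontin, read 9.23, 11.1 and 9.93 FPKM in the SCPs and 4.13, 5.12 and 6.18 FPKM in the RSCs (log2 fold change -0.86, SE 0.18, limma adjusted p = 0.011). With unnamed transcripts added it was not called (-0.57, SE 0.18). Of the 3 chains called higher in the SCPs, Itga4 kept its call under every alternative run. The calls of Itga8 and Itga9 were both lost under median-of-ratios scaling and without SCP2, SCP3, RSC1 or RSC2, each of which left 1 chain called higher in the SCPs.

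As shares of the summed FPKM of the 13 matrix-binding alpha chains, the laminin-binding chains held the largest part in the RSCs. Itga3, Itga6 and Itga7 made up 36.7%, 31.7% and 34.9% in the SCPs and 79.8%, 79.3% and 76.1% in the RSCs, a difference of 44.0 percentage points. In mean FPKM, Itga7 of this class went from 1.29 in the SCPs to 181 in the RSCs, and Itga6 from 37.2 to 96.4. The sum of all 13 chains went from 114 to 357 FPKM, so the gain in share lay mainly with Itga7 and not with Itga6. The RGD-binding chains went from 40.3% ± 1.38 (SD, n = 3) to 17.7% ± 0.487 (SD, n = 3), and Itga4 with Itga9 from 22.2% ± 1.55 to 2.56% ± 0.920. The collagen-binding chains held 3.07% ± 0.414 in the SCPs and 1.36% ± 0.736 in the RSCs. For each of these 4 shares the groups did not overlap, and the exact two-sided permutation p was 0.10, the smallest that 3 against 3 samples allow. A share does not change when all values of a sample are rescaled, but the 4 shares sum to 100% and so are not independent. The share of a class can fall while a chain in it rises, as with Itgav among the RGD-binding chains.

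**Figure D2:**
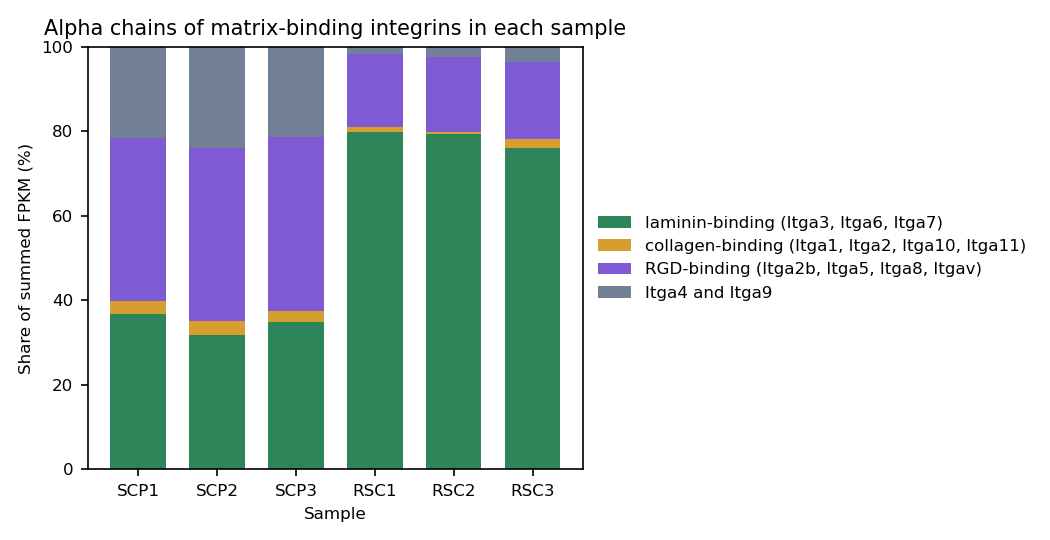
Share in percent of the summed FPKM of the 13 matrix-binding alpha chains held by each ligand class, stacked from 0 to 100%, for each SCP and RSC sample. The green laminin-binding part lies between 31.7% and 36.7% in the SCPs and between 76.1% and 79.8% in the RSCs.

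The summed FPKM of those alpha chains was 126, 118 and 97.6 in the SCPs and 367, 388 and 316 in the RSCs, and the matrix-binding beta chains summed to 129, 142 and 128 FPKM and to 395, 490 and 453 FPKM. Itgb1, the partner of most matrix-binding alpha chains, made up most of the SCP sum with 106, 116 and 101 FPKM, and read 191, 196 and 188 FPKM in the RSCs. The spread within each group was small beside the difference (log2 fold change 0.83, SE 0.07, limma adjusted p = 3.9e-04). Cufflinks marked the transcript that held these Itgb1 values as low data in every sample except SCP3.

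Itgb8, a partner of Itgav that takes part in the activation of latent TGF-beta, showed, by named transcripts, the largest log2 fold change after Itga7 among the genes tested here. It read 5.87, 5.66 and 5.16 FPKM in the SCPs and 171, 201 and 154 FPKM in the RSCs, which put it close to Itgb1 in the RSCs only (log2 fold change 4.74, SE 0.13, limma adjusted p = 1.3e-05). Itgb5, another partner of Itgav and a vitronectin receptor chain, went from 17.1, 19.3 and 20.1 FPKM to 33.7, 43.7 and 39.8 FPKM, apart in every sample (log2 fold change 1.01, SE 0.13, limma adjusted p = 0.0017). Itgb6, an epithelial partner of Itgav, was under the filter with at most 0.831 FPKM in any sample. Itgb3, a partner of Itgav and Itga2b, was listed at 0 in all 6 samples.

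Itgb4, which pairs with Itga6 only and is known from hemidesmosomes and from Schwann cells that myelinate, was listed at 0, 0.396 and 0.605 FPKM in the SCPs and at 0, 48.2 and 71.8 FPKM in the RSCs. Through the 0 in RSC1 the groups overlapped and the gene was not called (log2 fold change 3.55, SE 1.64, limma adjusted p = 0.13). That 0 came with reads elsewhere at the locus: the table of RSC1 holds a transcript without a gene name that spans the gene at 143 FPKM. With unnamed transcripts added to the gene they overlapped most, Itgb4 read 0.566, 0.396 and 0.605 FPKM in the SCPs and 143, 179 and 214 FPKM in the RSCs (log2 fold change 6.87, SE 0.16, limma adjusted p = 1.2e-06).

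The same addition was made for every gene. It left 30 of the 33 genes tested, 17 called higher in the RSCs and 4 higher in the SCPs, beside 23.2% and 34.2% of the 14019 genes then tested. Among the matrix-binding integrins 10 of 17 were then called higher in the RSCs, where the named transcripts alone gave 6 of 14, and the added ones were Itga1, Itga3, Itga10 and Itgb4. Itga4 then read 31.9, 36.1 and 30.3 FPKM in the SCPs against 5.04, 3.98 and 7.18 FPKM in the RSCs, over 4-fold (log2 fold change -2.43, SE 0.19). Of the calls higher in the SCPs, that of Itga9 was lost, and Itga2 (-1.10, SE 0.23) and Itga5 (-0.73, SE 0.11) gained one. Itgb3 had unnamed transcripts at 10.5, 14.8 and 17.8 FPKM in the SCPs and at 8.88, 8.87 and 9.44 FPKM in the RSCs, and was not called (log2 fold change -0.58, SE 0.19, limma adjusted p = 0.032).

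**Figure D3:**
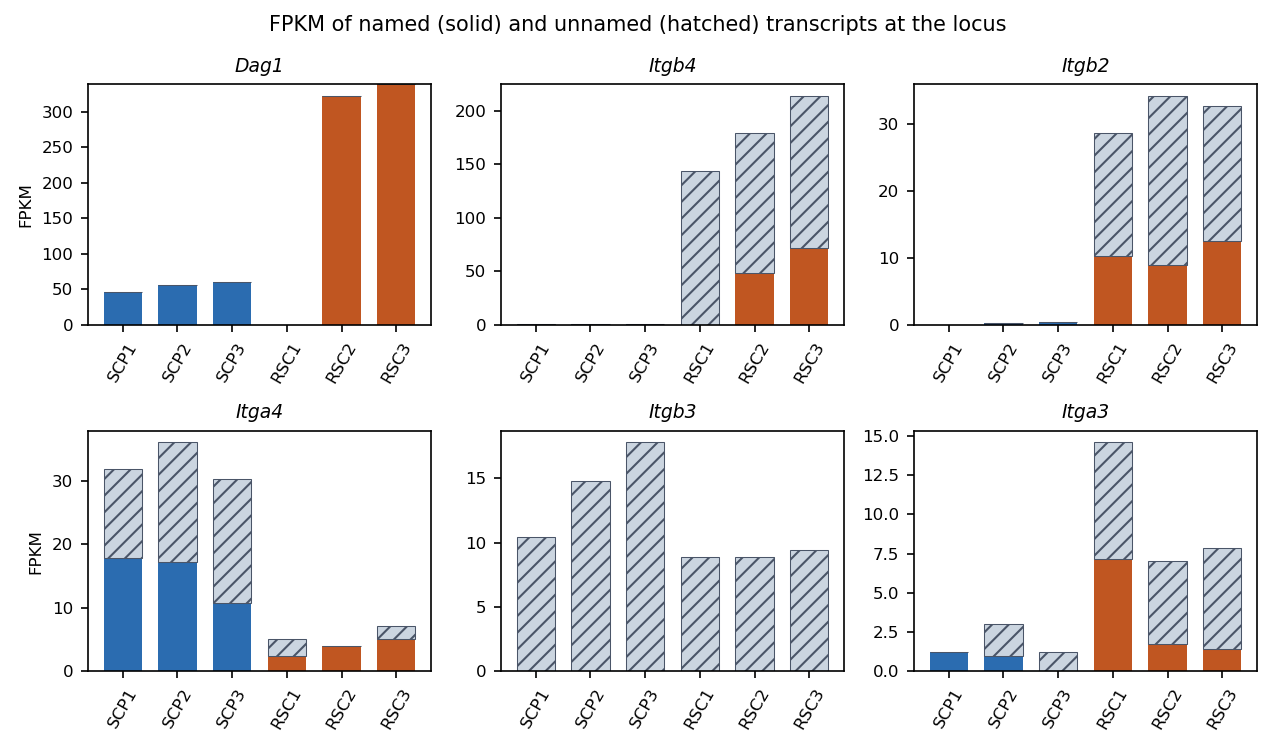
FPKM of transcripts with the gene's name (solid) and without a name (hatched) at 6 loci in each sample, with a vertical axis of its own for each gene. Itgb4 in RSC1 is held by an unnamed transcript at 143 FPKM, whereas Dag1 in RSC1 is at 0 with no unnamed transcript.

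Of the leukocyte chains, 4 of the 6 tested were called higher in the RSCs, beside 18.1% of all genes tested. All 4 were over 4-fold higher, beside 7.81% of all genes tested. Of the 6, all but Itgae had passed the filter only through the RSC samples, which fixes their direction. Itgam, the alpha chain of Mac-type integrin on macrophages and neutrophils, read 0.106, 0.0987 and 0.445 FPKM in the SCPs and 19.5, 25.1 and 19.0 FPKM in the RSCs (log2 fold change 4.19, SE 0.21, limma adjusted p = 6.0e-05). Itgax, a related chain of macrophages and dendritic cells, read 0.318, 0.186 and 0.335 FPKM and then 21.6, 26.8 and 30.9 FPKM (log2 fold change 4.41, SE 0.20, limma adjusted p = 3.9e-05). In every SCP sample both were under 0.5 FPKM.

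Itgal, the alpha chain that lymphocytes and other leukocytes use to bind Icam1, was listed at 0.600, 0 and 2.35 FPKM in the SCPs and at 24.0, 20.7 and 24.6 FPKM in the RSCs (log2 fold change 3.78, SE 0.45, limma adjusted p = 0.0011). Itgb2, the common beta chain of these receptors, read 0.0290, 0.271 and 0.367 FPKM and 10.2, 8.93 and 12.5 FPKM (log2 fold change 3.24, SE 0.23, limma adjusted p = 1.7e-04). In the RSCs its level was below those of Itgal, Itgam and Itgax, and with unnamed transcripts added it came to 28.6, 34.1 and 32.7 FPKM there. Itgad, a further partner of Itgb2, was listed at 0 in all SCP samples and at 0.715, 0.736 and 0.750 FPKM in the RSCs, under the filter.

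The 2 chains of the receptor for E-cadherin gave no call. Itgb7 was listed at 6.81 FPKM in RSC1 and at 0 in the other 5 samples. Itgae was listed at 4.74, 0 and 0 FPKM in the SCPs and at 1.49, 2.30 and 2.67 FPKM in the RSCs (log2 fold change 0.80, SE 0.73, limma adjusted p = 0.41). Its direction turned with unnamed transcripts added, to -1.42 (SE 0.52, limma adjusted p = 0.048) and no call, and without SCP1 it was called at 1.64 (SE 0.26).

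The 4 leukocyte chains called and the myeloid markers differed in the same direction, and whether they vary together was not tested. All 9 myeloid markers in the tables were called higher in the RSCs, each over 4-fold, among them Lyz2 at 1.99, 3.90 and 6.04 FPKM in the SCPs and 1468, 1667 and 1771 FPKM in the RSCs, and Csf1r, the receptor of macrophage growth factor, at 1.48, 3.83 and 3.27 FPKM and 54.4, 83.8 and 66.3 FPKM. Lymphocyte markers summed to 0.912 to 1.25 FPKM in the SCPs and 8.33 to 29.4 FPKM in the RSCs, and 4 of the 4 tested were called higher in the RSCs. All 4 had passed the filter only through the RSC samples, which fixes their direction. Among the myeloid markers the same holds for Ptprc, Cd14 and Fcgr2b. The lymphocyte marker Cd79a, under the filter, lay higher in the SCPs, at 0.429, 0.595 and 0.680 FPKM against at most 0.171 FPKM. Platelet markers summed to 12.6 to 31.8 FPKM in the SCPs and 67.0 to 151.6 FPKM in the RSCs, most of it Pf4, the sole platelet marker tested. Among the rest, all under the filter, Gp1ba lay higher in the SCPs, at 0.277, 0.324 and 0.658 FPKM against 0 in every RSC sample. The groups overlapped for the remaining platelet markers. The part of leukocyte and platelet RNA in the levels of the integrins was not tested.

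In the dystroglycan complex, 2 of 6 genes tested, Sgcb and Dmd, were called higher in the RSCs, beside 18.1% of all genes tested. The single negative estimate was that of Dag1. Dag1 encodes both chains of dystroglycan itself, and its value rests on a single listed 0. It read 45.6, 56.2 and 59.7 FPKM in the SCPs and 0, 322 and 338 FPKM in the RSCs. Cufflinks marked the 0 of RSC1 as low data, a mark that it also gave to the 56.2 FPKM of SCP2 and the 322 FPKM of RSC2, and no unnamed transcript lay there. With all 6 samples the log2 fold change was -0.19 (SE 2.30, limma adjusted p = 0.96), and without RSC1 it was 2.60 (SE 0.14) and called higher in the RSCs.

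The sarcoglycans sit beside dystroglycan in the membrane. Sgcb was listed at 1.48, 5.63 and 0 FPKM in the SCPs and at 22.2, 24.3 and 24.9 FPKM in the RSCs (log2 fold change 3.28, SE 0.66, limma adjusted p = 0.0088). Its SCP values scattered, and with unnamed transcripts added they came to 9.48, 5.63 and 6.39 FPKM beside 27.0, 28.0 and 24.9 FPKM, a log2 fold change of 1.79 (SE 0.18). Leaving out SCP1, RSC1, RSC2 or RSC3 ended its call, and the log2 fold change ranged from 2.61 without SCP3 to 3.98 without SCP2.

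Sgcd read 1.81, 2.80 and 1.43 FPKM in the SCPs and 4.85, 3.59 and 4.65 FPKM in the RSCs, apart but not called (log2 fold change 0.85, SE 0.25, limma adjusted p = 0.033). Sgce, the sarcoglycan found widely outside muscle, had the highest level of the 3, at 32.4, 24.2 and 33.2 FPKM and 45.2, 38.2 and 45.7 FPKM (log2 fold change 0.52, SE 0.15, limma adjusted p = 0.035). Both lay entirely higher in the RSC samples.

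Dystrophin and its relatives carry the link to actin. Dmd read 1.87, 4.54 and 1.92 FPKM in the SCPs and 10.2, 13.1 and 13.5 FPKM in the RSCs, with no overlap (log2 fold change 1.87, SE 0.31, limma adjusted p = 0.0041). Its 5 named transcripts are short ones of 2038 to 4554 bases, chrX:53360772-53519271 on rn6, so the value is not that of full-length dystrophin. By its highest transcript alone, taken by the mean over all 6 samples, the log2 fold change was 3.08 (SE 0.21). None of that transcript was found in the SCPs, whereas RSC1 held 7.25 FPKM, RSC2 7.86 FPKM and RSC3 7.27 FPKM. Another named transcript was the highest by mean in the SCPs, with 0.72, 3.52 and 1.92 FPKM. The choice thus rests on the RSC values, which fixes the direction, and 3.08 is no separate support for the difference. Utrn, encoding utrophin, read 27.1, 24.9 and 21.5 FPKM and 42.9, 23.1 and 28.3 FPKM, with RSC2 inside the SCP range, and was not called (log2 fold change 0.31, SE 0.24, limma adjusted p = 0.34). Drp2, the dystrophin relative of myelinating Schwann cells, was under the filter at 0.593 to 0.739 FPKM in the SCPs and 1.33, 1.80 and 0.120 FPKM in the RSCs.

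**Figure D4:**
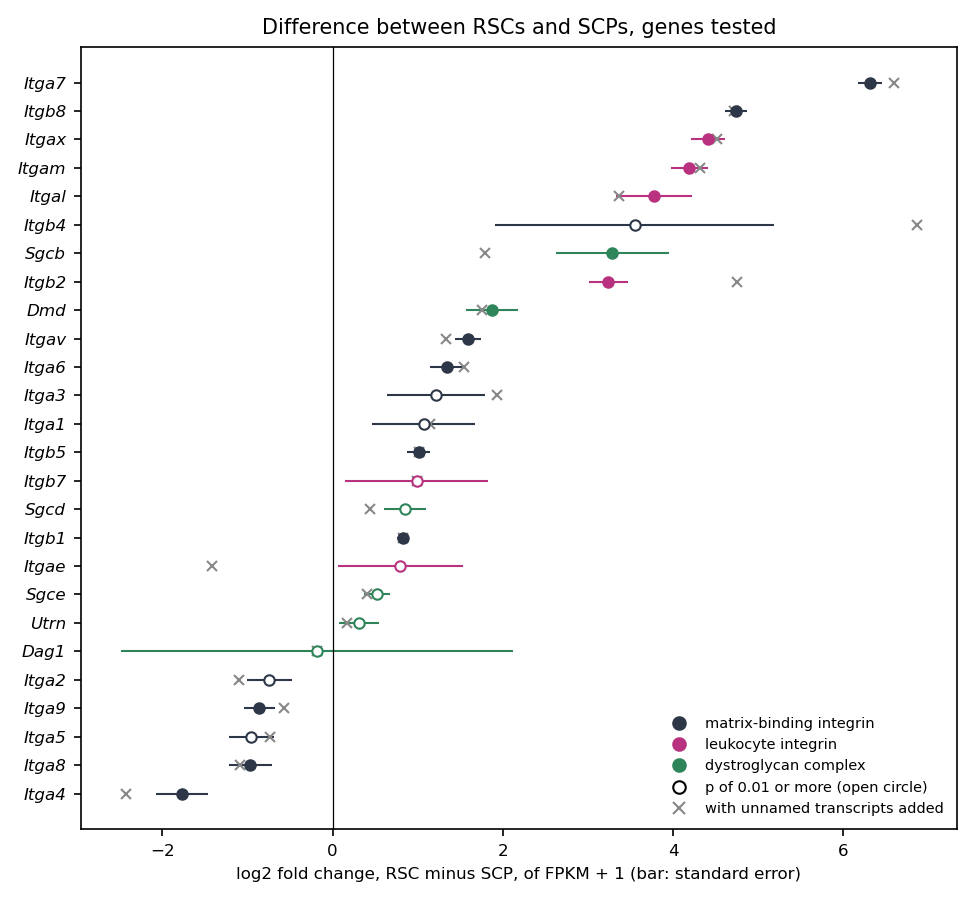
Log2 fold change of FPKM + 1, RSC minus SCP, for the 26 genes tested, with the standard error as bar, filled circles for genes called and crosses for the value with unnamed transcripts added. Among the circles Itga7 lies farthest to the right at 6.31 and Itga4 farthest to the left at -1.77, among the crosses Itgb4 at 6.87 and Itga4 at -2.43, and the bar of Dag1 spans 2.30 to each side of -0.19.

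The median difference was 1.04 for the 14 matrix-binding chains tested, beside -0.17 for all genes tested. By named transcripts, the order of mean levels in the SCPs was Itgb1, Dag1, Itga6, Sgce, Itga5 and Utrn, from 107.7 to 24.5 FPKM. Of these, Itga6 with a range of 32.8 to 44.1 FPKM overlapped Sgce, and the ranges of Sgce, Itga5 and Utrn overlapped one another. With unnamed transcripts added Utrn averaged 41.2 FPKM there and Sgce 39.7 FPKM, above Itga6 at 37.2 FPKM, and Itga4 averaged 32.7 FPKM, above Itga5 at 26.9 FPKM. In the RSCs, by named transcripts again, Itgb1, Itga7 and Itgb8 stood at 192 ± 4.47, 181 ± 19.2 and 175 ± 24.0 FPKM (SD, n = 3), values that overlapped one another. Itga6 at 96.4 ± 20.6 FPKM and Itgav at 48.3 ± 2.77 FPKM followed. Dag1 was above them all in RSC2 and RSC3. With unnamed transcripts added Itga7 averaged 220 FPKM and Itgb8 216 FPKM, both entirely above Itgb1, and Itgb4 averaged 179 FPKM, above Itga6 at 109 FPKM.

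The extracellular ligands of these receptors were examined as a list of 30 genes, of which 28 were in the tables and 23 were tested. In the RSCs 13 were higher and in the SCPs 2, beside 18.1% and 22.4% of all genes tested. The median difference of the ligands was 1.63. Spp1, encoding osteopontin, had the largest difference, from 3.20, 4.74 and 1.83 FPKM to 176, 147 and 161 FPKM (log2 fold change 5.31, SE 0.26). Among the ligands called, Col1a1, a chain of type I collagen, followed at 3.52 (SE 0.40). The fibroblast markers, a list that also holds Col1a1, differed in the same direction, 5 of 6 being higher in the RSCs. The part of fibroblast RNA in these levels was not tested. By named transcripts, the 2 ligands higher in the SCPs both bind dystroglycan. Agrn, encoding agrin, read 97.0, 101 and 125 FPKM against 32.1, 21.0 and 36.6 FPKM (log2 fold change -1.85, SE 0.22). Egflam, encoding pikachurin, read 31.6, 33.6 and 34.4 FPKM against 7.07, 6.55 and 4.30 FPKM (log2 fold change -2.32, SE 0.19). Laminin, also a ligand of dystroglycan, has chains on the list, and all of those called were higher in the RSCs. With unnamed transcripts added, 24 ligands were tested, 14 were higher in the RSCs and 5 in the SCPs, beside 23.2% and 34.2% of all genes then tested.

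Of 28 cytoplasmic partners of integrins, 24 were tested, with a median of 0.44. Among them 9 were higher in the RSCs and 2 in the SCPs, beside 18.1% and 22.4% of all genes tested. Lims2, an adaptor of the integrin-linked kinase, was listed at 0 in all SCP samples and at 32.4, 22.2 and 10.6 FPKM in the RSCs. Fermt3, the kindlin of blood cells, went from 3.74, 3.45 and 6.16 FPKM to 38.0, 40.8 and 55.1 FPKM (log2 fold change 3.08, SE 0.24), in the same direction as the myeloid markers. Parva, an actin-binding parvin, was higher in the SCPs at 66.4, 56.2 and 62.3 FPKM against 35.4, 39.9 and 44.7 FPKM (log2 fold change -0.61, SE 0.12). Actn4, an alpha-actinin, differed little in size, at 214, 224 and 223 FPKM against 188, 184 and 194 FPKM (log2 fold change -0.22, SE 0.06).

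Of 12 further partners of the dystroglycan complex, 7 were tested by named transcripts. Of these, 4 were higher in the RSCs and none in the SCPs, where Sntb1 came nearest at -2.18 (SE 0.87). The shares of all genes tested were 18.1% and 22.4%. The median of the 7 partners was 1.50. With unnamed transcripts added, 9 were tested, and their median became -0.48. Then 3 were higher in the RSCs and 1 in the SCPs, beside 23.2% and 34.2% of all genes then tested. Sspn, encoding sarcospan, read 1.53, 1.36 and 2.28 FPKM in the SCPs and 19.6, 19.8 and 19.4 FPKM in the RSCs (log2 fold change 2.93, SE 0.18). Sgca was higher in the RSCs at 1.51 (SE 0.40) and Sntg1 at 1.18 (SE 0.26), and both were low. Both had passed the filter only through the RSC samples, as had Prx, which was not called. Enzymes that put the laminin-binding sugar on dystroglycan made a list of 21 names, of which 16 were in the tables and 15 were tested. Among them 2 were higher in the RSCs and 1 in the SCPs, both below the 18.1% and 22.4% of all genes tested, with a median of 0.08. Large, which builds the part of the sugar that laminin binds, went from 5.84, 5.25 and 3.50 FPKM to 18.4, 17.5 and 17.8 FPKM (log2 fold change 1.71, SE 0.19). Pomgnt1 was higher in the RSCs at 1.29 (SE 0.16) and Pomt2 higher in the SCPs at -1.45 (SE 0.31).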

How the data were processed

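RNA of 3 SCP and 3 RSC samples was sequenced by the authors as stranded, paired-end mRNA libraries. Per the submitters' processing notes, FastQC 0.11.2, TopHat2 2.1.0 and Cufflinks 2.2.1 were used with the rn6 genome. The authors deposited a Cufflinks table per sample in FPKM, normalized for transcript length and mapped fragments, with the coverage of each transcript, a signal used here only for relative depth (0.79 to 1.00 of the deepest sample, SCP2). The tables hold no counts, so intervals from counting cannot be given. Cuffdiff output was not analysed here.

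FPKM of named transcripts were summed by gene symbol. Unnamed transcripts, 26.1% to 31.9% of all FPKM in the SCPs and 18.6% to 23.4% in the RSCs, were left out and added back as an alternative. Transcripts whose names had become dates in a spreadsheet, 77 per sample, were not used. A listed 0 can be a failed estimate. Where the mean reached 1 FPKM, genes were tested two-sided on log2(FPKM + 1) in limma 3.58.1 (R 4.3.3). The fit used a variance trend and took no account of replicate numbers. Benjamini-Hochberg adjustment ran over all genes tested. Tested on simulated data with 200 of 13003 genes made different by a log2 of 3, the fit recovered 87.5% of them. Named were all members and, for each pathway list, the top 2 and bottom 2 genes by log2 fold change at p under 0.01, with some items not reported here. The members and lists were chosen with earlier results of these data known. Alternatives changed the pseudocount, the filter, the scaling, the variance trend, the threshold, the samples, the transcripts summed and the treatment of values of 0. Gene positions are those of the tables on rn6. Promoters were read from RefSeq on GRCr8.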

Additional observations from a re-analysis of the deposited data

Results flagged for a closer look

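Transcripts without a gene name, which the comparisons leave out, averaged at least 5 FPKM and more than the named transcripts in one group or both at 6 of the loci. At Itgb4 they averaged 138.6 FPKM in the RSCs, beside 40.0 FPKM for the named transcript. At Itgb2 they averaged 21.2 FPKM in the RSCs beside 10.6 FPKM named, and at Itga3 6.39 FPKM beside 3.44 FPKM. At Itga4 the SCPs held 17.5 FPKM of unnamed transcripts beside 15.3 FPKM named. At Itgb3, whose named transcript was listed at 0 in all 6 samples, they averaged 14.3 FPKM in the SCPs and 9.07 FPKM in the RSCs. At Itgae the unnamed transcripts averaged 10.9 FPKM in the SCPs beside 1.58 FPKM named, and they were 761 to 1131 bases long, all at one end of the gene.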

How the results depend on the processing

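Of 434 recomputed values for single genes, 391 kept their direction and their side of the threshold, 22 lost and 18 gained a call and 3 reversed. The reversals were Itgae with unnamed transcripts added (-1.42), and Dag1 with zeros left out (2.60) and without RSC1, over a leave-one-out range of -1.60 to 2.60. Adding unnamed transcripts gave 10 matrix-binding integrins higher in the RSCs in place of 6, and 1 member over 4-fold higher in the SCPs in place of 0, as did a pseudocount of 0.1. Matrix-binding integrins higher in the SCPs fell from 3 to 1 with median-of-ratios scaling, with an adjusted p under 0.01 and with the replicate block, and ranged from 1 to 3 without one sample. Dystroglycan complex genes higher in the RSCs, 2 in the main comparison, numbered 1 with a pseudocount of 0.1, 4 with median-of-ratios scaling, 4 with zeros left out, and 1 to 3 without one sample (1 without SCP1, RSC2 or RSC3). The highest transcript per gene was taken by its mean over all 6 samples. With it the share differences were 56.9 percentage points for laminin-binding, -29.9 for RGD-binding and -25.1 for Itga4 with Itga9. With unnamed transcripts added they were 50.8, -20.6 and -27.9. The causes were not tested beyond what each alternative's construction shows. Same-numbered samples of the groups did not deviate together (correlations 0.04, -0.005 and 0.03), so the numbers were not taken as pairs, and the replicate block gave 13 members higher in the RSCs and 1 higher in the SCPs. Over all genes, unnamed transcripts raised the calls from 5268 to 8040. Depth is known only as a ratio, so no counting error can be set on genes near 1 FPKM.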
